A study of Mus musculus with 10 samples.

Results

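The 4 nectin genes (Nectin1, Nectin2, Nectin3 and Nectin4) and Afdn, which encodes afadin, were followed across both enamel layers and both genotypes. They were taken by gene symbol from the deposited tables, and all 5 were listed in each table, among 16292 genes for ameloblasts and 16638 for the stratum intermedium. The data were RNA-seq libraries of laser-captured cells from mouse hemi-mandibles. The groups were claudin-10 knockout (KO) ameloblasts with 3 libraries, wild-type (WT) ameloblasts with 2, KO stratum intermedium with 3 and WT stratum intermedium with 2. Each library name starts with a prefix (KO1, KO3, KO9, WT10 or WT5) that recurs in both layers and was taken to mark the mouse, which the labels do not state. No label gives the age or strain of the mice, the kind of Cldn10 allele or a promoter that drives its deletion, so these are not described.

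Nectins are single-pass adhesion molecules of the immunoglobulin family that hold neighbouring cells together without calcium. Their extracellular parts bind each other between cells, and binding between different nectins, such as Nectin1 with Nectin3, is stronger than binding of a nectin to itself. Inside the cell the tail of a nectin binds the PDZ domain of afadin, which also binds actin filaments and so ties the contact to the cytoskeleton and to cadherin junctions. Ameloblasts, which secrete and mature enamel, rest on the stratum intermedium, and mice without Nectin1 have defective enamel with ameloblasts that come apart from that layer. In humans, mutations of NECTIN1 and NECTIN4 cause ectodermal dysplasias that affect teeth.

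The deposited values, normalized counts per gene, summed to between 21006977 and 26856177 per library, and between 33 and 854 genes per library were listed at 0. Cldn10, the knocked-out gene, had 280.1, 407.8 and 148.7 normalized counts in KO ameloblasts (KO1, KO3, KO9), against 600.1 and 751.8 in WT ameloblasts (WT10, WT5). The genotypes did not overlap, as for 9.26% of genes in that direction. Cldn10 had 1003, 387.1 and 464.7 in KO stratum intermedium, against 7257 and 2365 in WT stratum intermedium, where KO lay below WT for 7.44% of genes. Its transcript thus stayed above 0 in every KO library. Ameloblast markers (10 of 12 listed for ameloblasts, 11 of 12 for the other layer) took 2.23% to 9.17% of ameloblast libraries and 0.135% to 0.956% of stratum intermedium libraries. The summed stratum intermedium list (15 of 15, Cldn10 among them) did not separate the layers, with 0.249% to 0.685% in ameloblasts and 0.265% to 0.823% in the stratum intermedium. Among its genes Krt14 and Krt5 were higher in ameloblasts in all 5 prefixes, and Alpl was lower in ameloblasts in all 5. Endothelial markers (8 of 8) took 0.00774% to 0.0271% of ameloblast and 0.0366% to 0.0483% of stratum intermedium libraries, without overlap, and their part in the layer differences given here was not tested. Fibroblast markers (8 of 8) took 2.04% to 5.18% of the 10 libraries. Odontoblast and dental pulp markers (8 of 8, Col1a1 and Col1a2 shared with the fibroblast list) took 4.24% to 7.88% of ameloblast and 3.15% to 8.71% of stratum intermedium libraries. That was more than the ameloblast list in every ameloblast library but KO1, and more than either enamel list in every stratum intermedium library. Fewer cells of a type and less RNA per cell cannot be told apart in such samples. KO1 and KO3 had Xist at 5791 or more and almost no Y-linked transcripts, and the other 3 prefixes had Xist at 33.2 or less, so KO held both sexes and WT males alone.

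By the median over all libraries of a layer, KO and WT together, Nectin4 had the highest level per length in both layers. In ameloblasts the median normalized count per kb of merged exons was 238.1 for Nectin4, 191.8 for Nectin1, 106.0 for Nectin2, 100.1 for Afdn and 67.3 for Nectin3. The ranges over the 5 ameloblast libraries overlapped for each neighbouring pair in that order, and Nectin4 stood above Nectin1 in only 3 of 5 libraries. In WT ameloblasts Nectin4 had 66.2 (WT10) and 137.4 (WT5) per kb, and Nectin1 had 251.0 and 102.4. In WT10 Nectin4 was also below Nectin2, at 79.4, and Afdn, at 100.1. The medians per kb in the stratum intermedium were 534.5 for Nectin4, 221.8 for Nectin2, 159.7 for Nectin3, 132.6 for Afdn and 104.7 for Nectin1. There Nectin4 stood above Nectin2 in 5 of 5 libraries without overlap, and the ranges of the other neighbours overlapped. By these medians Nectin1 was second of the 5 in ameloblasts and last in the stratum intermedium. It stood above Nectin2 in only 3 of 5 ameloblast libraries, and below Afdn in only 3 of 5 stratum intermedium libraries.

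**Figure D1:**
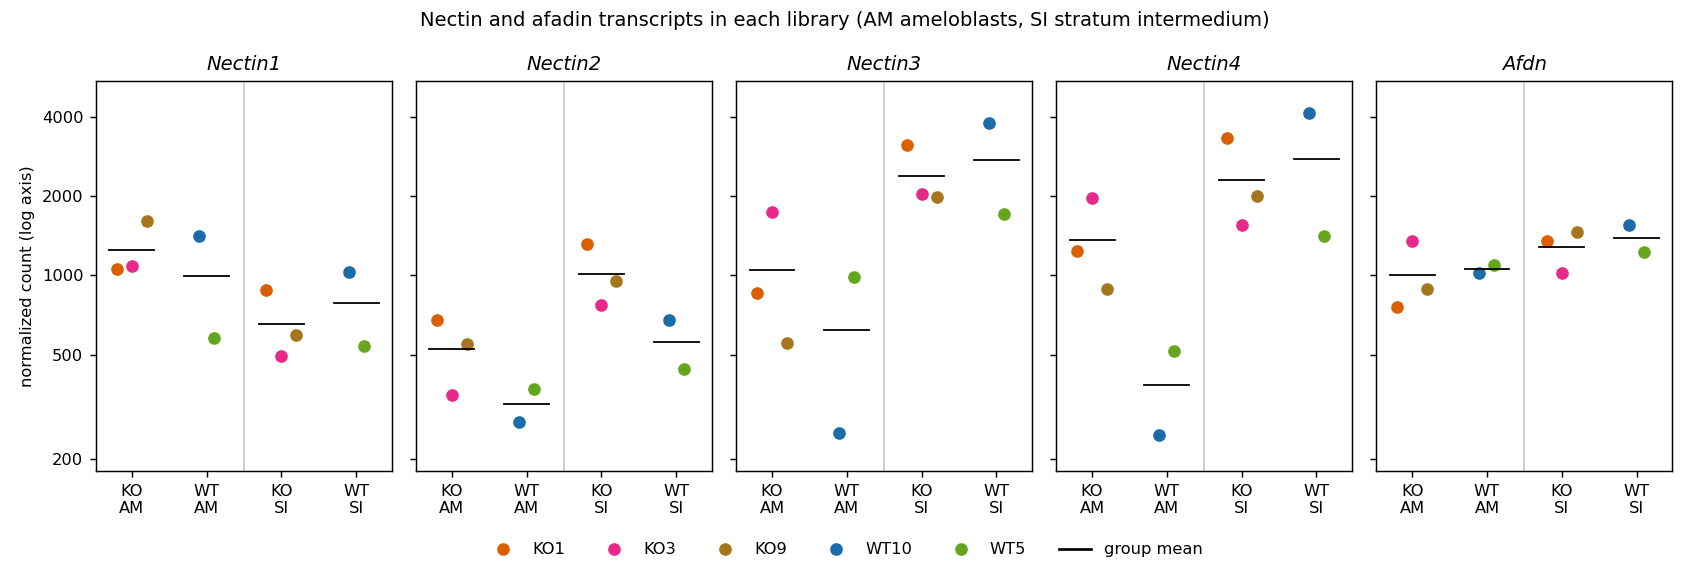
Normalized counts (log axis) of the 4 nectins and Afdn in each library, by genotype (KO, WT) and layer (AM ameloblasts, SI stratum intermedium), with points coloured by mouse prefix and lines at group means. Nectin4 in KO ameloblasts, at 891.8 to 1965, lies above both WT ameloblast values, 247.8 and 514.7, and in the stratum intermedium Nectin4 overlaps while Nectin2, at 775.0 to 1315 in KO and 439.4 and 675.0 in WT, does not.

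Nectin1, one of the nectins that pair across the border between ameloblasts and stratum intermedium in mouse teeth, was the member with more transcript in ameloblasts. Its gene (ENSMUSG00000032012) lies on chromosome 9 from 43743984 to 43807461 in GRCm38. It had 1062, 1084 and 1608 normalized counts in KO ameloblasts (KO1, KO3, KO9) and 1419 and 578.6 in WT ameloblasts (WT10, WT5). Stratum intermedium libraries had 877.1, 492.1 and 591.7 in KO and 1036 and 538.3 in WT. Each prefix had more Nectin1 in its ameloblast library than in its stratum intermedium library. After centring on the median of 15567 genes, the ameloblast minus stratum intermedium log2 difference was 0.42 in KO1, 1.29 in KO3, 1.61 in KO9, 0.56 in WT10 and 0.28 in WT5, with a mean of 0.83 ± 0.59 (SD, n = 5). Of all genes, 11.1% were higher in ameloblasts in all 5 prefixes, and 91.0% had a mean difference at or below that of Nectin1. Both tables were normalized separately by the authors, so this difference between layers was described and not tested.

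Nectin3 and Nectin4 had the opposite layer pattern. Nectin3 (ENSMUSG00000022656, chromosome 16 from 46387706 to 46498525, GRCm38), the usual partner of Nectin1 across cells, had 858.0, 1745 and 553.9 normalized counts in KO ameloblasts and 250.3 and 988.8 in WT ameloblasts. Its stratum intermedium values were 3132, 2036 and 1993 in KO and 3794 and 1714 in WT, and every value there except that of WT5 was above every ameloblast value. Its log2 layer difference was below 0 in 5 of 5 prefixes, from -0.07 in KO3 to -3.81 in WT10 (mean -1.58 ± 1.43, SD, n = 5). Without WT10 the mean was -1.02.

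Nectin4 (ENSMUSG00000006411, chromosome 1 from 171370099 to 171388598), a nectin of epithelia such as skin, had 1236, 1965 and 891.8 normalized counts in KO ameloblasts and 247.8 and 514.7 in WT ameloblasts. In the stratum intermedium it had 3346, 1563 and 2002 in KO and 4152 and 1417 in WT. Its log2 layer difference was -1.29 in KO1, -0.99 in KO9, -3.95 in WT10 and -1.29 in WT5, and 0.49 in KO3, the only prefix with more Nectin4 in ameloblasts. The mean was -1.41 ± 1.60 (SD, n = 5), and without WT10 it was -0.77. Cldn10, the knocked-out gene and on the stratum intermedium list, had -1.69 in KO1, 0.23 in KO3, -1.47 in KO9, -3.49 in WT10 and -1.48 in WT5. Krt14 and Krt5 of that list were higher in ameloblasts in every prefix. The part of that list in the layer pattern of Nectin4 was not tested. Of all genes, 3.17% had a mean layer difference at or below that of Nectin3 and 4.29% at or below that of Nectin4.

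Nectin3 and Nectin4 also varied alike between libraries of a layer. Over the 10 libraries, with the mean of each layer taken off, their log2 values had a Pearson r of 0.86, the highest of the 10 pairs of members. These 10 libraries come from 5 prefixes, so the points are not independent. The stretches of sequence before the RefSeq starts of Nectin3 and Nectin4 lie at unlike positions relative to the annotated genes. Whether these stretches differ in kind, or bear on the likeness of the transcripts, was not tested. Both stretches, from RefSeq in the GRCm38.p6 build, run 5′ to 3′ up to the RefSeq start of the gene or, for Nectin4, up to the base before the first exon annotated by GENCODE, with CpG dinucleotides in capitals.
Nectin3, chr16:46496968-46497217, minus strand: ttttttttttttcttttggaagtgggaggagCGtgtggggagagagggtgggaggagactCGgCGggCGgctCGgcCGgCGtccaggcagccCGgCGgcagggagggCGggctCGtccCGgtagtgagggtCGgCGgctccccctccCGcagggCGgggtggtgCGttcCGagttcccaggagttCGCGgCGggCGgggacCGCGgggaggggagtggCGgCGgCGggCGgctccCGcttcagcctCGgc
Nectin4, chr1:171369923-171370098, plus strand: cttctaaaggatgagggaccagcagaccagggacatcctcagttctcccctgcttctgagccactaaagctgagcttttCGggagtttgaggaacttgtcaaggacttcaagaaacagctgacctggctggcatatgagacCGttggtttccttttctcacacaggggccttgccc
The window of 250 bases before the RefSeq start held 30 CpG dinucleotides for Nectin3 and 3 for Nectin4, against a median of 6 over 32817 such windows. RefSeq windows were matched for 4 of the 5 members, and those of Nectin2 and Afdn held 16 and 51. In GENCODE the genes of Nectin3 and Nectin2 start further upstream, at 46498525 and 19750483 on the minus strand, so their windows lie inside the annotated genes. The windows of Nectin4 and Afdn hold 74 and 80 annotated exon bases. The counts therefore compare windows at unlike positions. The GC box GGGCGG, searched on both strands and counted with overlaps, occurred 5 times in the window of Nectin3, 2 times in that of Nectin2, 4 times in that of Afdn and 0 times in that of Nectin4. It is present in 32.7% of all windows. TGGGAA, the core letters bound by the Notch effector RBPJ, occurred once in the Nectin3 window and in 21.6% of all windows.

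Nectin2, a nectin with a wide tissue range, also had less transcript in ameloblasts. Its gene (ENSMUSG00000062300) lies on chromosome 7 from 19716644 to 19750483. It had 679.3, 352.1 and 549.6 normalized counts in KO ameloblasts and 277.3 and 370.5 in WT ameloblasts, against 1315, 775.0 and 955.4 in KO stratum intermedium and 675.0 and 439.4 in WT stratum intermedium. The layer difference was below 0 in 5 of 5 prefixes, from -0.07 in WT5 to -1.17 in WT10, with a mean of -0.73 ± 0.42 (SD, n = 5). Nectin2 and Nectin3 were thus 2 of 5 members that were lower in ameloblasts in every prefix, as were 9.96% of all genes. An antisense gene, Gm20512, shares 135 exon bases with Nectin2 on the other strand. No source used here gives the strand setting of the counting, so reads there cannot be told apart.

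Afdn varied least. The afadin gene (ENSMUSG00000068036, chromosome 17 from 13760539 to 13906150) had 757.0, 1358 and 885.2 normalized counts in KO ameloblasts and 1023 and 1100 in WT ameloblasts. It had 1355, 1022 and 1460 in KO stratum intermedium and 1560 and 1230 in WT stratum intermedium. All 10 values lay within 757.0 to 1560, and the groups overlapped in both layers. Ameloblasts were higher in 2 of 5 prefixes after centring on the median of all genes, by 0.57 in KO3 and 0.01 in WT5 (log2). Without centring they were higher in 1 of 5, KO3. Tcte2 on the opposite strand shares 221 exon bases with Afdn.

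Nectin1 was a larger part of the nectins in ameloblasts. The ratio of Nectin1 to Nectin3 counts was 0.280, 0.242 and 0.297 in KO stratum intermedium and 0.273 and 0.314 in WT stratum intermedium. In ameloblasts it was 1.24, 0.621 and 2.90 in KO and 5.67 and 0.585 in WT, and it was higher than in the stratum intermedium in 5 of 5 prefixes, by 0.90 to 4.38 on the log2 scale. A factor that scales a whole library cancels in this ratio, but one that differs between genes does not. Whether the normalization used only factors of the former kind could not be told from the values. As a share of the nectin sum per length, Nectin1 made up 20.1% to 60.3% in ameloblasts and 9.29% to 12.98% in the stratum intermedium, and Nectin4 made up 15.9% to 55.0% and 47.1% to 62.2%. Nectin2 varied as widely in either layer, with 10.6% to 25.04% in ameloblasts and 10.8% to 25.6% in the stratum intermedium.

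**Figure D2:**
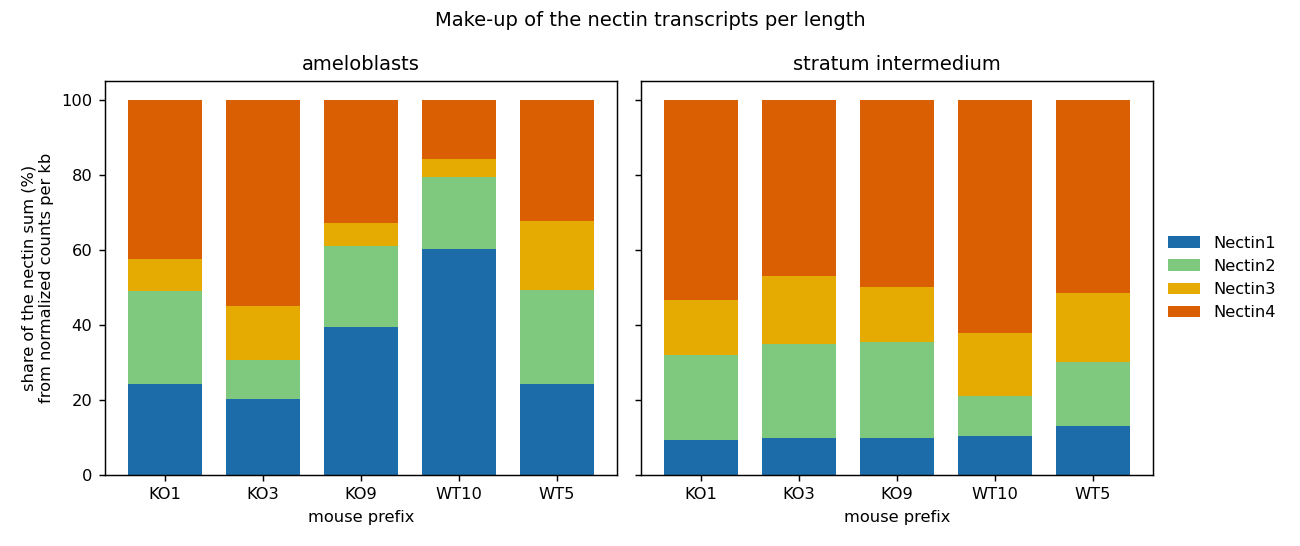
Share of each nectin in the sum of the 4 nectins (%, from normalized counts per kb of merged exons), with 1 bar per library and mouse prefixes along the x axis, for ameloblasts and stratum intermedium. Nectin1 takes 20.1% to 60.3% of the ameloblast bars and at most 12.98% of the stratum intermedium bars.

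**Figure D3:**
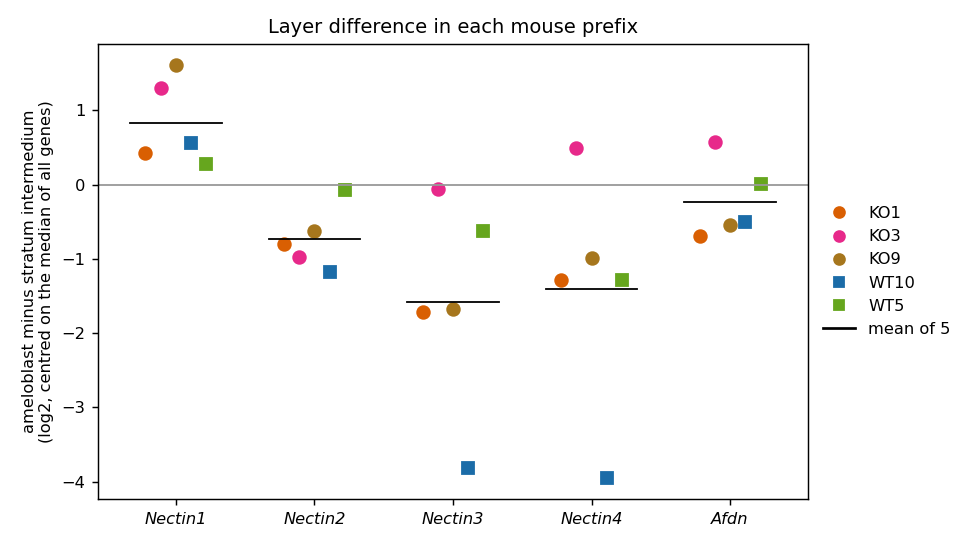
Ameloblast minus stratum intermedium log2 difference of each member in each mouse prefix, centred on the median of all genes, with circles for KO, squares for WT and lines at the mean of 5. Nectin1 lies above 0 and Nectin2 and Nectin3 below 0 in all prefixes, and the WT10 squares of Nectin3 and Nectin4 lie lowest, at -3.81 and -3.95.

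The genotype comparison in ameloblasts asked whether the nectins differ between KO and WT. Nectin4 averaged 1364 ± 548 normalized counts in KO (SD, n = 3) and 381.3 ± 189 in WT (SD, n = 2), and no KO library overlapped WT. The log2 difference in limma, a linear model fitted over all 16212 genes tested, was 1.85 (SE 0.45). It did not pass correction over all genes (adjusted p = 0.989 in limma, unadjusted p = 0.00441), and the two-sided exact permutation p was 0.1, the smallest that 3 against 2 libraries can give. In limma 0 genes had an adjusted p under 0.05, and 3.07% had an unadjusted p under 0.05 (2.25% with KO higher), as did 1 of the 5 members, with KO higher. KO stood above both WT libraries for 1 of 5 members and for 9.09% of all genes. Left out one by one, the libraries gave log2 differences of Nectin4 between 1.33 (without WT10) and 2.38 (without WT5).

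Each library name ends in a group number that no source used here explains. Within group 1 the difference was 1.93 (KO3 against WT5), and within group 2 it was 1.84 (KO9 against WT10). These are pairs of single libraries, and since the genotypes do not overlap any such pair is positive. Adding sex to the fit, so that only KO9 sets the KO value, gave 1.32 (SE 0.57, unadjusted p = 0.0646 in limma).

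Most markers of the neighbouring layer also had higher values in KO ameloblasts, but their sum did not separate the genotypes. Of the 15 stratum intermedium markers, 14 had a KO minus WT log2 difference above 0 there, with a median of 0.44 against 0.04 over all genes, and 1, Cldn10, was below 0. Among them were the desmosomal cadherin gene Dsc3 (log2 1.62, SE 0.30), the bicarbonate transporter gene Slc4a4 (1.63, SE 0.35), the keratin gene Krt17 (1.39, SE 0.45) and the Notch target Heyl (0.87, SE 0.28), named after their values were seen as the markers above 0 with an unadjusted p under 0.05. None passed correction, and none of the 15 was listed at 0 in any ameloblast library. The sum of the list, of which the abundant keratins Krt14 and Krt5 are a large part, took 0.484% to 0.561% of KO ameloblast libraries and 0.249% (WT5) and 0.685% (WT10) of WT ones. Markers of red blood cells (5 of 6 listed) took 0.0814% to 0.144% of KO and 0.244% and 1.28% of WT ameloblast libraries, with 0 of 5 above 0. All 11 muscle markers were above 0 (median 1.09), and 0 of 7 osteoclast markers were (median -0.97). The part of these lists in the Nectin4 difference was not tested.

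The other members overlapped between KO and WT ameloblasts. Nectin3 averaged 1052 ± 619 in KO and 619.5 ± 522 in WT (log2 0.92, SE 0.68). It rested on WT10, without which the difference was -0.074. Nectin2 averaged 527.0 ± 165 in KO and 323.9 ± 65.9 in WT (log2 0.66, SE 0.38), and Nectin1 averaged 1251 ± 309 and 998.8 ± 594 (log2 0.44, SE 0.42). Without WT5 the Nectin1 difference was -0.21. Afdn averaged 1000.1 ± 317 in KO and 1062 ± 54.2 in WT (log2 -0.13, SE 0.31). Their adjusted p-values in limma were 0.989 to 0.991.

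The same comparison in the stratum intermedium gave 1 member whose genotypes did not overlap, Nectin2. It averaged 1015 ± 275 in KO (SD, n = 3) and 557.2 ± 167 in WT (SD, n = 2), without overlap, with a log2 difference of 0.86 (SE 0.33). It did not pass correction (adjusted p = 1.000 in limma, unadjusted p = 0.0323, exact permutation p = 0.2). KO stood above both WT libraries for 1 of 5 members and for 7.76% of all 16543 genes tested. In limma 0 genes had an adjusted p under 0.05, and 1 of 5 members, with KO higher, and 2.06% of all genes (1.27% with KO higher) had an unadjusted p under 0.05. Within group 1 the Nectin2 difference was 0.82 and within group 2 it was 0.50, and leaving out 1 library gave 0.55 (without WT5) to 1.17 (without WT10). With sex in the fit it was 0.81 (SE 0.49, unadjusted p = 0.146 in limma). In this layer 10 of 11 muscle markers were above 0 (median 1.14), as were 1 of 6 red blood cell markers (median -0.95) and 3 of 15 stratum intermedium markers (median -0.17). The part of these lists in the Nectin2 difference was not tested.

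The other 4 members overlapped in the stratum intermedium, and none had a log2 difference larger than its standard error. Nectin1 averaged 653.6 ± 200 in KO and 786.9 ± 352 in WT (log2 -0.23, SE 0.38). Nectin3 averaged 2387 ± 646 and 2754 ± 1471 (log2 -0.13, SE 0.37), and Nectin4 2304 ± 929 and 2784 ± 1934 (log2 -0.15, SE 0.49). Afdn averaged 1279 ± 229 in KO and 1395 ± 234 in WT (log2 -0.13, SE 0.25). Here KO1 and WT10 had the highest values of all 4 nectins, Nectin2 included, of their genotype. The same libraries had the most transcript of the stratum intermedium list, 0.724% and 0.823% of counts, against 0.265% to 0.337% in the other 3 libraries. The part of this list in those levels was not tested.

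**Figure D4:**
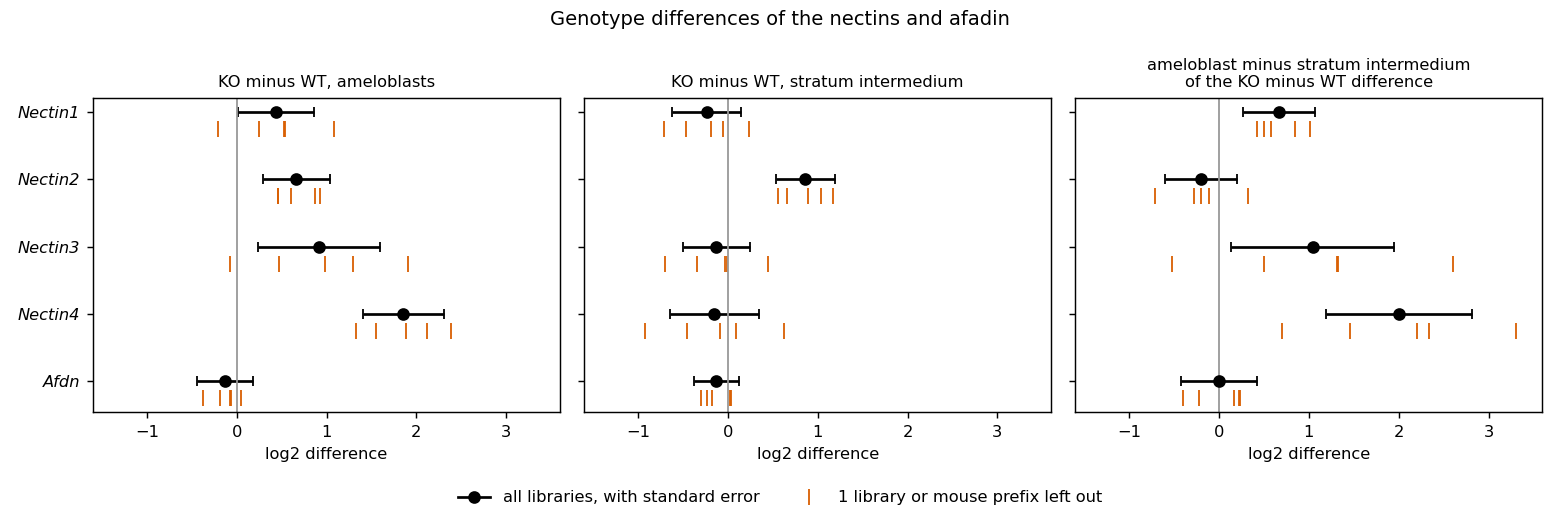
Log2 differences of the 4 nectins and Afdn: KO minus WT in ameloblasts, KO minus WT in the stratum intermedium, and the ameloblast minus stratum intermedium difference between them. Black points with bars are limma estimates with standard errors from all libraries, and orange ticks leave out 1 library or mouse prefix. Nectin4 stays above 0 in ameloblasts (1.33 to 2.38) and crosses 0 in the stratum intermedium (-0.92 to 0.63).

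Whether the genotype difference itself differed between layers was tested on the ameloblast minus stratum intermedium value of each prefix. For Nectin4 the KO minus WT difference was larger in ameloblasts by 2.00 on the log2 scale (SE 0.81, adjusted p = 0.836 and unadjusted p = 0.0420 in limma). An unadjusted p under 0.05 was found for 1 of 5 members, with a positive difference, and for 5.15% of 15567 genes (3.12% positive), and no gene had an adjusted p under 0.05 in limma. All 15 stratum intermedium markers had a positive value in the same fit (median 0.86), and their part in the Nectin4 value was not tested. This value was 0.70 without WT10, 3.30 without WT5 and 1.59 with sex in the fit (SE 1.18, unadjusted p = 0.225 in limma). Nectin3 gave 1.04 (SE 0.91), which became -0.52 without WT10, and Nectin1 gave 0.67 (SE 0.40). Nectin2 gave -0.20 (SE 0.40) and Afdn 0.00 (SE 0.42), and no member passed correction.

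Genes whose variation between libraries was most like that of each member were ranked over 10 libraries by Pearson r, with the layer means removed, among 12812 genes with a mean of at least 50 in both tables. For Nectin4 they were Srd5a1 (r = 0.968), which encodes a steroid reductase, Atp1b3 (0.968), a subunit of the sodium pump, and Enpp2 (0.962), which encodes autotaxin. For Nectin3 they were Tmem30b (0.965), Map7 (0.963), which encodes a microtubule-binding protein, and Lgi2 (0.962). Nectin2 was most like Pdlim7 (0.973), Pgap2 (0.942) and Ap2a2 (0.916), which encodes an adaptor of endocytosis. Nectin1 was most like Cdv3 (0.959), the zinc transporter gene Slc39a6 (0.958) and the kinase gene Mapk6 (0.957). Afdn had weaker matches in Dcbld2 (0.906), Scoc (0.891) and Washc4 (0.877). These r values were picked as the highest among 12812 genes. Each prefix gave a library in both layers, so the points are not independent, and genotype differences were left in the values. The part of the marker lists in these likenesses was not tested.

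Genes that work with nectins were read as lists. Of 20 afadin and nectin partners, which link nectins to cadherins, tight junctions and actin, 13 had a KO minus WT difference above 0 in ameloblasts and 5 in the stratum intermedium, where 53% and 51.9% of all genes had one. Their median log2 difference was 0.07 in ameloblasts (0.04 over all genes) and -0.08 in the stratum intermedium (0.02 over all genes), and 0 passed correction in either layer. F11r, which encodes the tight junction adhesion molecule JAM-A, had 4309, 3440 and 3604 normalized counts in KO ameloblasts and 2557 and 1601 in WT ameloblasts (log2 0.90, SE 0.27, adjusted p = 0.989 in limma). Its KO libraries stood above both WT libraries, as did those of 9.09% of all genes in ameloblasts. Camsap3, which binds microtubule minus ends at junctions, had a log2 difference of 1.59 (SE 0.79), with 42.9 to 67.8 normalized counts in KO ameloblasts and 10.2 (WT10) and 30.9 (WT5) in WT ameloblasts. The tight junction scaffold gene Tjp1 had 1150, 1501 and 1022 in KO stratum intermedium and 2341 and 1644 in WT stratum intermedium (log2 -0.70, SE 0.27, adjusted p = 1.000 in limma). The E-cadherin gene Cdh1 had a difference of -0.36 (SE 0.29) in that layer and Lmo7, which binds afadin and actinin, one of -0.30 (SE 0.28).

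Nectin-like molecules and nectin receptors are mostly adhesion partners on other cell types. Of 9 such genes, 6 were tested in each layer, with 3 above and 3 below 0 in each, and 0 passed correction. Tigit and Cd226, receptors of lymphocytes, were not among the listed genes of either table. Cd96 was listed for ameloblasts alone, with 0 to 24.7 normalized counts, and Crtam for the stratum intermedium alone, with 0 to 26.5. The genes tested therefore differ between the layers. Cadm1, a nectin-like adhesion gene, was abundant in ameloblasts, with 21211, 10992 and 13691 normalized counts in KO and 14119 and 8193 in WT (log2 0.45, SE 0.37). Pvr, another relative, had log2 differences of 0.27 (SE 0.33) in ameloblasts and 0.54 (SE 0.47) in the stratum intermedium. The stratum intermedium value rested on WT10, since Pvr had 305.8, 407.0 and 378.4 normalized counts in KO stratum intermedium against 151.5 (WT10) and 406.0 (WT5) in WT. Cadm3 had -1.29 (SE 1.09) and -1.12 (SE 1.16), and Cadm2 had 1.52 (SE 0.89) in the stratum intermedium, where its normalized counts were 75.7, 144.9 and 40.4 in KO and 13.9 (WT10) and 47.9 (WT5) in WT.

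The signalling list held the small GTPases, exchange factors, integrins and growth factor receptors that act with nectins. In ameloblasts 8 of 20 tested were above 0 and 12 below, and in the stratum intermedium 11 of 21 were above and 10 below, with 0 past correction in each layer. The 3 with the smallest p-values in ameloblasts were Itgb3, an integrin subunit that associates with nectins (log2 -1.22, SE 0.68), the kinase gene Src (-0.61, SE 0.37) and the receptor gene Erbb3 (2.71, SE 1.79). Erbb3 had 202.1, 207.9 and 52.5 normalized counts in KO ameloblasts and 1.03 and 197.2 in WT ameloblasts, so its difference rested on WT10. Itgb3 had 277.8, 781.5 and 957.4 in KO ameloblasts and 739.5 (WT10) and 2594 (WT5) in WT ameloblasts, so only WT5 lay above the KO range. The osteoclast list took 0.102%, 0.270% and 0.452% of the same KO libraries (KO1, KO3, KO9) and 0.346% (WT10) and 0.756% (WT5) of the WT ones. Its part in the Itgb3 difference was not tested. The 3 with the smallest p-values in the stratum intermedium were the GTPase gene Rac1 (0.52, SE 0.24), its exchange factor Vav2 (1.61, SE 0.89) and Rap1a (0.56, SE 0.32), whose product binds afadin. Vav2 had 203.3, 269.1 and 252.5 normalized counts in KO stratum intermedium and 24.5 (WT10) and 243.6 (WT5) in WT, so its difference rested on WT10. Rap1a had 1099, 1610 and 1479 there in KO and 700.6 (WT10) and 1245 (WT5) in WT, so only WT10 lay below the KO range. Rac1 had 5952, 4550 and 5973 in KO and 4631 (WT10) and 3114 (WT5) in WT, so only WT5 did.

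Partners with the same layer direction in every prefix were found on both sides. Of the 20 afadin and nectin partners, 3 were higher in ameloblasts in all 5 prefixes, among them Cdh1 (mean log2 layer difference 1.66) and the actinin gene Actn4 (0.29). Another 3 were lower in all 5, namely Plekha7 (-1.29), which ties cadherin junctions to microtubules, the adaptor gene Sorbs3 (-1.02) and the polarity gene Pard3 (-0.28). The shares over all genes were 11.1% and 9.96%. Of 20 signalling genes 5 were higher and 3 lower in all prefixes, and of 5 nectin-like genes 0 were either.

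**Figure D5:**
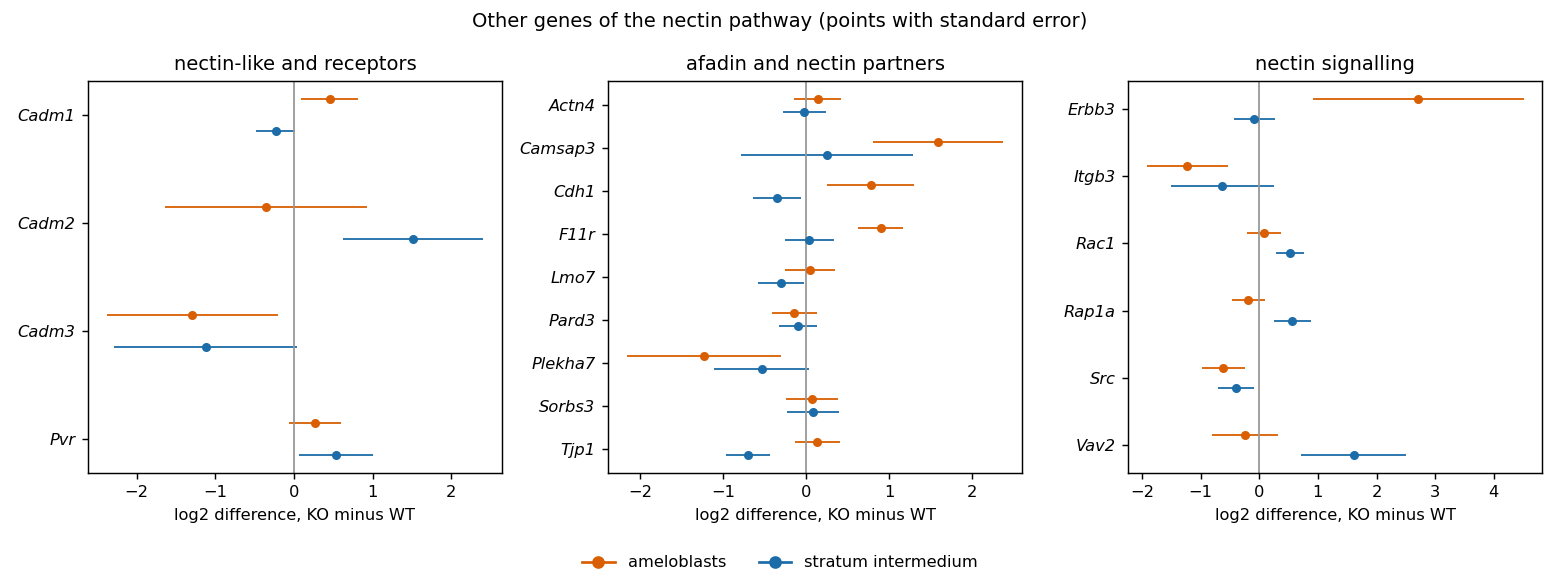
KO minus WT log2 differences with standard errors for the genes of 3 nectin pathway lists that the text names, in ameloblasts (orange) and the stratum intermedium (blue). Points lie on both sides of 0, with F11r at 0.90 in ameloblasts and Tjp1 at -0.70 in the stratum intermedium.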

How the data were processed

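The signal values are normalized counts per gene, deposited by the authors in 1 table per layer. The submitters' processing notes name STAR 2.5.2b, featureCounts, DESeq, Picard 2.8.1, FastQC and the build GRCm38. The table names give Ensembl release 101 and say that outliers were left out. Every listed gene reached a value of 10 in at least 3 libraries. Between 95.9% and 99.2% of the values above 0 and under 60 in a library were distinct, which whole reads divided by 1 factor per library would not give. Reads could not be recovered, so sequencing depth and counting error are unknown. Per the labels' protocols, libraries were made with a stranded polyA kit after laser capture.

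Columns were matched to samples by library name, and 0 were left unused. Genotypes were compared inside a table by limma (version 3.58.1, R 4.3.3, trend) on log2(value + 1), keeping genes whose mean reached 10, with Benjamini-Hochberg adjustment over all genes tested and a threshold of 0.05. Fold changes are on that scale. The difference between layers was fitted to ameloblast minus stratum intermedium values per prefix. Values of a prefix deviated together across layers (r = 0.284 to 0.374 over genes). With 2 WT libraries in a layer, the deviations of WT10 and WT5 mirror each other and give the same r. Each prefix kept its group number in both layers, so these r cannot tell mouse from group. Different prefixes of the same group gave 0.11 and 0.359 in ameloblasts and 0.279 and 0.0753 in the stratum intermedium. Exact permutation tests over 10 arrangements used the size of the difference. If libraries do not stem from separate mice, p-values measure only the spread between libraries. Exon lengths came from GENCODE M21, sequences from RefSeq (GRCm38.p6). Tests recovered 25% and 53% of simulated ameloblast changes of 2 and 4 on the log2 scale over 16212 genes.

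The members were named by symbol. From 3 pathway lists, the 3 genes with the smallest p in each layer were named, and some of these were given by library after their values were seen; so were Alpl, Krt14, Krt5, the markers named beside Nectin4 and genes with a layer difference in all prefixes. Results of some genes under these rules are not reported here. For each member the 3 genes of highest r were named. Members, lists and tests were chosen with earlier results of these data known. Markers of endothelium, macrophages, nerve, oral epithelium and dental pulp were summed too, with median KO minus WT differences in ameloblasts of -0.15, 0.45, 0.28, -0.65 and -0.25. The pseudocount was also set to 0.5 or 8 and the filter to none or 50; other alternatives were quantile normalization, rescaling by median ratios, robust variance, library weights (statmod 1.5.0), sex, group number or replicate number as terms, and leaving out libraries. Figures used matplotlib 3.10.9.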

Additional observations from a re-analysis of the deposited data

How the results depend on the processing

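No member passed an adjusted p of 0.05 in limma under any alternative run. The number of genes past it was 0 except without WT replicate 2 in ameloblasts (1) and without prefix WT5 in the difference between layers (2), so those counts ranged from 0 to 1 and from 0 to 2 when libraries were left out, and from 0 to 0 in the stratum intermedium. The replicate block changed no call, with log2 differences of Nectin4 in ameloblasts of 1.55 and of Nectin2 in the stratum intermedium of 0.89; the replicate numbers did not pair libraries (r = 0.164 and -0.11 in ameloblasts, -0.279 and -0.156 in the stratum intermedium), and an unadjusted p under 0.05 was then found for 354 and 185 genes, against 498 and 340 without it. Leaving out 1 library gave ranges in ameloblasts of -0.21 to 1.08 for Nectin1, 0.46 to 0.93 for Nectin2, -0.074 to 1.90 for Nectin3 and -0.37 to 0.048 for Afdn. In the stratum intermedium these were -0.71 to 0.24 for Nectin1, -0.70 to 0.44 for Nectin3, -0.92 to 0.63 for Nectin4 and -0.30 to 0.040 for Afdn. For the difference between layers they were 0.43 to 1.01 for Nectin1, -0.72 to 0.32 for Nectin2, -0.52 to 2.61 for Nectin3 and -0.40 to 0.23 for Afdn. Other alternatives also moved member values by over 1.5 times. In ameloblasts library weights gave 0.34 for Nectin2 and 1.46 for Nectin3, and sex as a covariate gave 0.83 for Nectin1, 0.15 for Nectin3 and -0.26 for Afdn. The replicate block gave 0.47 for Nectin3 and -0.37 for Afdn in ameloblasts. For the difference between layers, sex gave 1.16 for Nectin1, -0.034 for Nectin2 and 0.51 for Nectin3, the group number as a block gave 1.01 for Nectin1 and 0.23 for Afdn, and library weights gave 0.32 for Afdn. In the stratum intermedium, Nectin1, Nectin3, Nectin4 and Afdn moved as far with library weights, sex or a block, within -0.47 to 0.076. The Afdn difference turned direction in ameloblasts with library weights (0.16) and with the group number as a block (0.048), in the stratum intermedium with sex as a covariate (0.076), and between layers with quantile normalization (-0.051) and with sex (-0.34); the cause was not tested. With the longest transcript as the length, the median of Afdn per kb was 132.3 in ameloblasts and 175.3 in the stratum intermedium, with the order of the members unchanged in both layers. Layer differences of the 5 members kept their direction in all alternatives, and moved by less than their SD.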
